A study of Arabidopsis thaliana with 12 samples.

Results

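The comparison described here sets 35S:MYB106SRDX seedlings against 35S:WIN1SRDX seedlings of Arabidopsis thaliana, across all genes of the array. It uses the 4 arrays whose titles name MYB106SRDX and the 4 whose titles name WIN1SRDX, which are 8 of the 12 arrays in the series. The other 4 arrays are of wild type and show where the unmodified level lies. All 3 groups were whole seedlings of accession Columbia-0 at 3 weeks of age, grown on MS agar with 1% sucrose at 23 °C in 16 h of light and 8 h of darkness. Both lines carry a fusion gene under the constitutive 35S promoter with a NOS terminator, a promoter active in most tissues. The labels do not say how many independent transformants make up a line. Several seedlings from a plate were pooled for each sample and no separate cultures are named, so a p-value covers only the spread among these arrays, which may be technical.

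SRDX is a short repression motif derived from the floral factor SUPERMAN (SUP), and a transcription factor fused to it represses the genes that it would otherwise activate. MYB106 is a MYB factor of the MIXTA type, known from the shaping of epidermal cells, trichome branching and cuticle formation. WIN1, also called SHN1, is an AP2/ERF factor that activates cutin and wax genes. The plant cuticle is a layer of cutin polyester and wax on the shoot epidermis, and suberin is a related polyester of the root. The comparison asks where seedlings that make a repressor form of one cuticle factor differ from seedlings that make a repressor form of the other.

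Between 59.3% and 64.2% of the non-control spots lay well above background on an array, and there were 0 saturated spots. The median spot intensity was 76.7 ± 7.87 (SD, n = 4) on the MYB106SRDX arrays and 112 ± 22.3 (SD, n = 4) on the WIN1SRDX arrays, and the arrays of the lines did not overlap (two-sided exact permutation p = 0.0286, which is as low as 4 against 4 arrays can reach, and 0.0571 adjusted over 2 measures). Spots well above background made up 60.4% ± 0.855 (SD, n = 4) of a MYB106SRDX array and 62.5% ± 1.76 (SD, n = 4) of a WIN1SRDX array, with an exact permutation p of 0.114. MYB106SRDX and WIN1SRDX arrays correlated with each other at 0.810 to 0.897, below the range within MYB106SRDX (0.935 to 0.972) and within WIN1SRDX (0.922 to 0.971). The arrays came from 3 slides that each held all 3 groups, but the place on the slide moved with the group: MYB106SRDX lay at places 2 and 3, WIN1SRDX at places 3 and 4, and wild type at places 1 and 2. Replicate 2 of WIN1SRDX stood apart: 346 of its genes lay more than 2 log2 units below the lowest of the other 3 arrays of the line, 242 of them (69.9%) in the first 100 of 532 rows of spots, which hold 18.5% of the genes. Replicate 2 of MYB106SRDX had 434 such genes, 81 of them (18.7%) in those rows. What part these array features play in a given result was not tested.

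Each value is the log2 of a signal over its array's 75th percentile, and differences are MYB106SRDX minus WIN1SRDX with their standard error (SE) from a limma fit of all 12 arrays. That fit shares 1 estimate of spread among the groups. Wild-type arrays varied less (median SD of a gene 0.14, against 0.30 in MYB106SRDX and 0.27 in WIN1SRDX). The SE and p-values between the lines thus tend to be smaller than the spread of the lines alone gives. A fit of the 8 arrays of the lines passed 6277 genes. A gene passed where its p-value, adjusted by Benjamini and Hochberg's method over all genes tested, was under 0.05. A probe well above background on 0 arrays of a line gives only a bound, written as "at least N-fold"; the bound sets the brighter line's mean against the lowest signals that were well above background on the dim line's arrays.

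Of 25665 genes on the array, 19720 were tested, those well above background on each of the 4 arrays of 1 or both lines. The difference passed for 8505 of them (43.1%), with 3712 higher (18.8%) and 4793 lower (24.3%) in MYB106SRDX than in WIN1SRDX. At least 2-fold differences made up 4714 of the calls (23.9% of the genes tested), 1658 higher (8.41%) and 3056 lower (15.5%). The 4 arrays of one line lay wholly above or wholly below those of the other for 35.2% of genes, 15.3% higher and 19.8% lower in MYB106SRDX. The split of the calls, 43.6% of them higher, depends on the scaling: it was 77.5% higher when each array was centred on its median, which moved the median difference of all genes to 0.46 against -0.03, and 26.0% higher in the authors' value table, where that median was -0.19. The median difference of -0.03 lay between quartiles of -0.55 and 0.37.

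The large differences were mostly on one side. Differences of at least 16-fold passed for 55 genes higher and 404 lower in MYB106SRDX, and those of at least 64-fold for 3 higher and 102 lower. These counts include genes not well above background on every array of 1 line, whose differences rest partly on such dim signals. They were not made for the genes measured on all 8 arrays alone. Genes tested only because all WIN1SRDX arrays measured them numbered 1357, against 633 tested only through MYB106SRDX, and such genes were picked by being measured throughout 1 line and not throughout the other, which favours a difference. Among the 17730 genes well above background on all 8 arrays, 40.4% passed, 19.5% higher and 20.9% lower. In the dimmest 25% of the tested genes 13.3% were higher and 41.2% lower, and in the brightest 25% 22.8% were higher and 13.8% lower. The calls were spread over the 5 nuclear chromosomes, with 22.5% to 26.0% of genes lower on each. Of 2225 tested probes that name no annotated locus, 357 were higher and 258 lower (27.6% called).

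**Figure D1:**
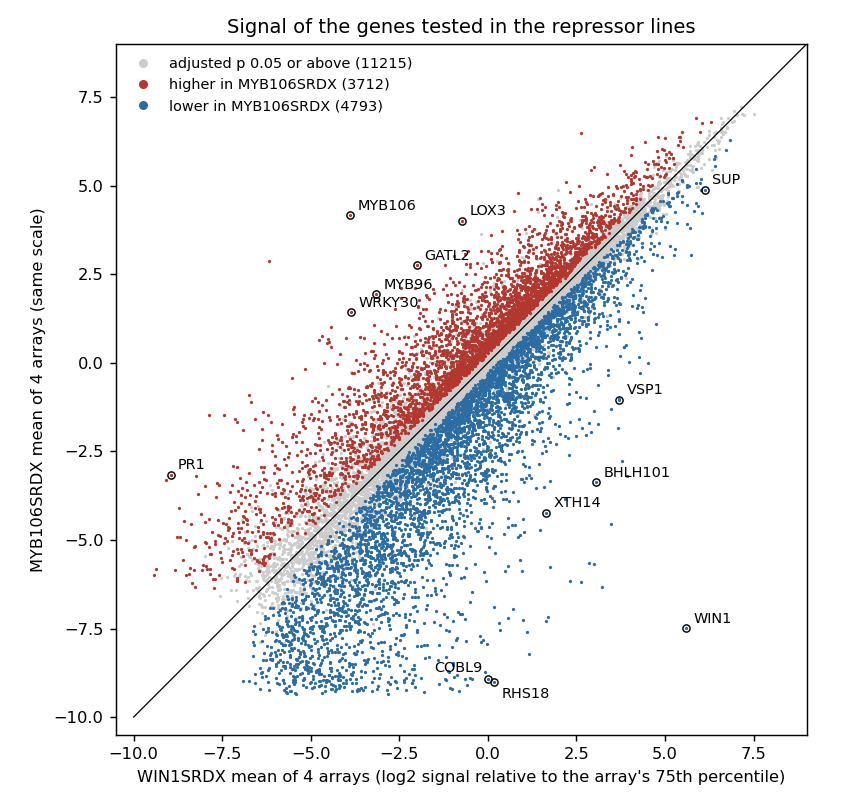
Mean log2 signal of each tested gene in MYB106SRDX (vertical axis) against WIN1SRDX (horizontal axis), scaled to each array's 75th percentile, with 4 arrays a line. Red points passed as higher in MYB106SRDX (3712), blue points as lower (4793) and grey points did not pass; the line marks equal signal, and the blue cloud reaches much farther from it at the bottom right than the red cloud does at the top left.

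The probes of the fused factors separated the lines. MYB106 (AT3G01140) read 4.57, 2.77, 4.81 and 4.53 on the MYB106SRDX arrays, against -4.45, -2.77, -4.73 and -3.62 on the WIN1SRDX arrays. The lowest MYB106SRDX array, replicate 2, still lay far above every WIN1SRDX array, and the difference was 8.06 ± 0.54 (SE; limma adjusted p = 2.52e-06). The wild-type mean was -2.29, and WIN1SRDX minus wild type was -1.6 (limma adjusted p = 0.0437). WIN1 (AT1G15360) read -8.83, -8.62, -3.36 and -9.16 in MYB106SRDX, against 5.55, 5.58, 5.39 and 5.86 in WIN1SRDX, and was well above background on 1 of the 4 MYB106SRDX arrays. The lines did not overlap, and the WIN1 difference was -13.09 ± 1.14 (SE; adjusted p = 1.37e-05). Probe positions on the transcripts were not used, so the fusion's signal and that of the plant's own gene cannot be told apart.

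SUP, whose name the motif carries, was well above background on 0 of 4 wild-type arrays and on all 8 arrays of the lines. It read 5.34, 3.59, 5.46 and 5.17 in MYB106SRDX, against 6.15, 6.06, 5.93 and 6.37 in WIN1SRDX. Every MYB106SRDX array lay below every WIN1SRDX array, and the difference of -1.24 ± 0.38 (SE) passed with an adjusted p of 0.0219. That call was lost under 5 of 29 alternatives, among them the fit of the 8 arrays alone and the fit without replicate 4 of WIN1SRDX (highest adjusted p = 0.129). Replicate 2 of MYB106SRDX was the lowest of its line for both MYB106 and SUP. Probe positions were not used for SUP either, so signal from the motif of the fusions and from the plant's own SUP gene cannot be told apart.

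The 2 tested relatives of the fused factors did not pass between the lines. MYB16, the closest paralog of MYB106, read -1.14, -1.78, -4.48 and -3.58 in MYB106SRDX, against -4.79, 0.55, -1.01 and -2.85 in WIN1SRDX, with a wild-type mean of 1.21. The lines overlapped (difference -0.71 ± 1.04 SE, adjusted p = 0.604), and the sign turned without replicate 2 of WIN1SRDX (0.14) and within slide 1 (3.66). SHN2, a paralog of WIN1, read -3.15, -6.47, -8.89 and -6.70 in MYB106SRDX and -6.64, -2.34, -2.80 and -2.44 in WIN1SRDX (difference -2.75 ± 1.18 SE, adjusted p = 0.0816). The lines overlapped there too. Within slides 1, 2 and 3 the SHN2 difference was 3.49, -5.34 and -4.08, and it passed without replicate 1 of MYB106SRDX or without replicate 1 of WIN1SRDX (limma adjusted p = 0.0128 and 0.0145). SHN3 was well above background on 0 MYB106SRDX arrays and 2 WIN1SRDX arrays and was not tested.

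Among 13 tested regulators of the cuticle and the epidermis, 4 were higher and 2 lower in MYB106SRDX, and both fused factors count in those numbers (7 higher and 2 lower with median centring). The 46.2% of this list that passed lay near the 43.1% over all genes tested. Of all genes tested 18.8% were higher and 24.3% lower, and the counts of the lists below stand beside these shares. MYB96, a MYB factor known for activating wax genes under drought, read 2.67, 1.21, 2.19 and 1.70 in MYB106SRDX, against -4.76, -1.08, -1.87 and -4.88 in WIN1SRDX. MYB106SRDX lay near the wild-type mean of 1.49 and WIN1SRDX far below it (difference between the lines 5.09 ± 0.77 SE, adjusted p = 0.000474). DEWAX, an AP2/ERF repressor of wax genes, read 2.67, 3.37, 2.71 and 1.75 in MYB106SRDX, against 4.68, 4.60, 4.82 and 4.43 in WIN1SRDX and a wild-type mean of 5.27. It thus was lower in MYB106SRDX on every array (difference -2.01 ± 0.27 SE, adjusted p = 0.000234). The epidermal homeodomain genes HDG1 and HDG2 were higher in MYB106SRDX by 1.59 ± 0.25 (SE) and 1.35 ± 0.47 (SE), with adjusted p-values of 0.000614 and 0.039. ATML1 and PDF2, which specify epidermal identity, differed by 0.66 and 0.95 and did not pass.

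Of the 17 tested cutin genes, which make and export the polyester of the shoot cuticle, 0 were higher and 0 lower by limma (4 had an unadjusted p under 0.05), and their median difference was -0.06 beside -0.03 over all genes. Both lines lay below wild type, with list medians of -2.50 in MYB106SRDX and -2.48 in WIN1SRDX. The intervals were wide: GPAT8, an acyltransferase, differed by -2.23 ± 1.01 (SE, adjusted p = 0.098), HTH by -1.58 ± 0.60 (SE, adjusted p = 0.0531), ABCG11, an exporter of cuticular lipids, by 1.33 ± 0.59 (SE, adjusted p = 0.0912) and GPAT4 by 1.23 ± 0.49 (SE, adjusted p = 0.0627). Other settings gave up to 3 higher (median centring) and 2 lower (the authors' value table), and leaving out 1 array gave up to 2 higher and 3 lower. The cutin median took values of 1.15, -0.65 and -1.04 on slides 1, 2 and 3, and it was 0.43 with median centring, so its sign depended on the slide and the scaling.

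Of 15 wax genes tested, 1 was higher and 3 lower, with a median difference of -0.33. That median was 1.3, -0.36 and -0.73 within slides 1, 2 and 3, and 0.17 with median centring, which gave 5 higher and 0 lower. Leaving out replicate 2 of MYB106SRDX gave 5 lower. CER2, a component of the elongation of the longest wax precursors, read -0.46, -0.59, -1.02 and -1.91 in MYB106SRDX, against -5.56, -6.88, -2.78 and -4.27 in WIN1SRDX and a wild-type mean of 1.59. Both lines lay below wild type and WIN1SRDX lay lower (difference 3.87 ± 0.72 SE, adjusted p = 0.00155). CER2 was well above background on 3 WIN1SRDX arrays, and its probe lies in the first 100 rows, where replicate 2 of WIN1SRDX read low. The 3 lower genes, KCR1, PAS2 and KCS9, encode enzymes of the elongation of very long fatty acids and differed by -0.86, -0.60 and -0.61. With median centring none of the 3 passed as lower. CER1 and CUT1, which make alkanes and elongate wax precursors, had differences of 0.68 ± 1.27 and 0.96 ± 1.16 (SE; adjusted p = 0.692 and 0.53).

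Suberin genes were mostly lower in MYB106SRDX: 8 of 11 tested were lower and 0 higher, with a median difference of -2.17. Of the 9 suberin genes measured on all 8 arrays, 6 were lower. ABCG6, a transporter of suberin synthesis, read -5.25, -4.11, -3.94 and -6.02 in MYB106SRDX, against -1.56, -2.01, -2.18 and -0.96 in WIN1SRDX and a wild-type mean of -0.03. The lines did not overlap (difference -3.16 ± 0.45 SE, adjusted p = 0.000335). ABCG2 differed by -1.56 ± 0.24 (SE, adjusted p = 0.00054). CYP86B1, a fatty acid hydroxylase of suberin, differed by -4.16 ± 0.75 (SE, adjusted p = 0.00133) with 2 of 4 MYB106SRDX arrays well above background. The acyltransferase GPAT5 and the reductases FAR1 and FAR5 differed by -0.38, 0.03 and 0.85 and did not pass. Within the slides the suberin median was -3.15, -1.3 and -3.82.

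**Figure D2:**
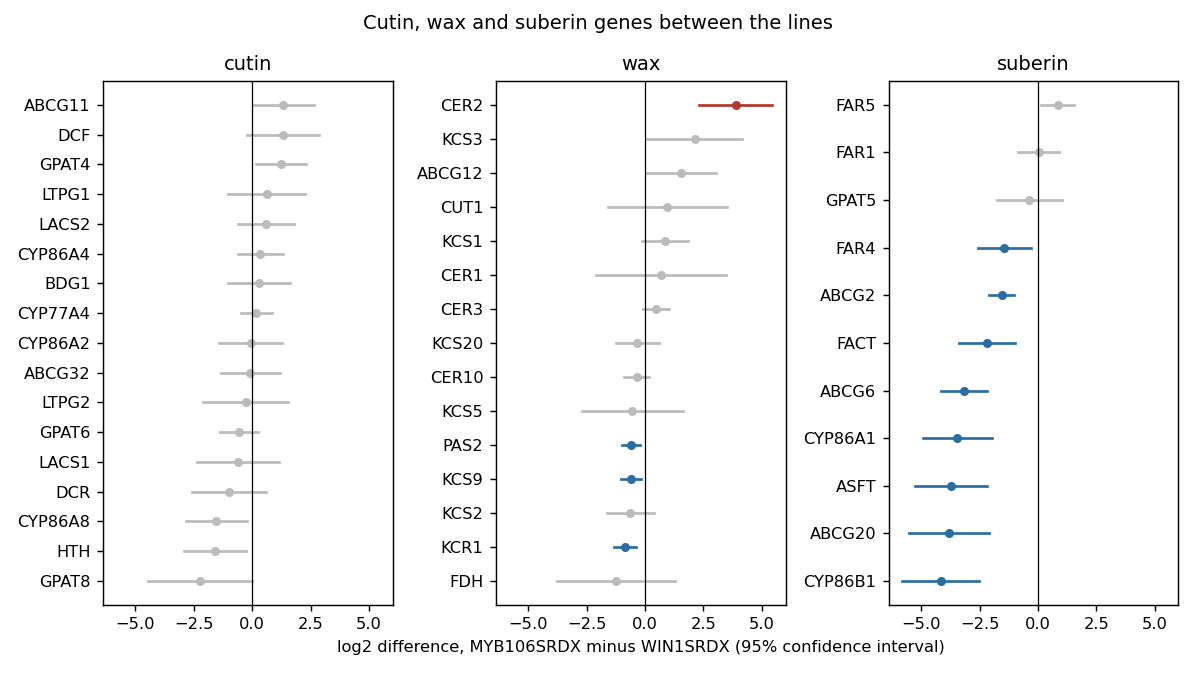
Log2 difference of each tested cutin, wax and suberin gene, MYB106SRDX minus WIN1SRDX, with the 95% confidence interval of the fit (4 arrays a line). Red passed as higher, blue as lower and grey did not pass: the intervals of the 17 cutin genes are all grey, CER2 stands alone at 3.87 among the wax genes, and 8 of 11 suberin genes are blue.

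Root hairs are tubular outgrowths of the root epidermis, set up by bHLH factors of the RHD6 and RSL4 kind and built with dedicated wall proteins. Of 9 root hair genes tested, 8 were lower in MYB106SRDX and 0 higher, with a median difference of -6.90, or -5.87 with the 4 genes that no MYB106SRDX array measured set to their bound. All 8 were tested through WIN1SRDX alone, so the count and the median are a description. COBL9 (AT5G49270), a wall-anchored protein of root hair growth, read -8.31, -9.22, -9.03 and -9.18 in MYB106SRDX, against 0.63, -0.82, -0.09 and 0.32 in WIN1SRDX and a wild-type mean of -1.57. No MYB106SRDX array was well above background, which makes COBL9 at least 129-fold lower in that line (adjusted p = 4.23e-08). EXPA18, a root hair expansin, read -9.10, -8.37, -9.02 and -9.18 in MYB106SRDX, against 0.02, -1.0, -1.14 and -0.48 in WIN1SRDX, and was at least 82.1-fold lower (adjusted p = 5.87e-08).

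WIN1SRDX lay above wild type for several of these genes and MYB106SRDX below it. COBL9 in WIN1SRDX lay 1.58 above wild type (adjusted p = 0.00364) and EXPA18 2.30 above it (adjusted p = 0.000567). PRP1, a proline-rich wall protein, was at least 29.2-fold lower in MYB106SRDX than in WIN1SRDX (adjusted p = 2.34e-07) and lay 3.34 above wild type in WIN1SRDX (adjusted p = 7.61e-05). The bHLH factors were lower too: RSL4 was at least 58.4-fold lower in MYB106SRDX (adjusted p = 1.07e-06), and RHD6 differed by -6.38 ± 0.52 (SE, adjusted p = 8.16e-06) with 1 MYB106SRDX array well above background. The summed linear signal of the 9 genes was 0.0768 to 0.256 on the MYB106SRDX arrays, 2.99 to 7.62 on the WIN1SRDX arrays and 0.900 to 1.48 in wild type. LRX2, an extensin of growing root hairs and the only member measured on all 8 arrays, differed by -0.11 ± 0.46 (SE, adjusted p = 0.86). In RNA of whole seedlings, fewer cells of a type and less RNA per cell cannot be told apart.

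Genes of the endodermis, the inner root layer that carries the Casparian strip, were lower in MYB106SRDX for 9 of 9 tested members, including all 6 measured on all 8 arrays. The median difference was -3.86, or -3.09 with CASP4 at its bound. MYB36, the factor that switches on the strip genes, read -4.65, -4.21, -5.27 and -4.55 in MYB106SRDX, against 0.42, -1.35, -0.22 and 0.42 in WIN1SRDX (difference -4.49 ± 0.36 SE, adjusted p = 8.03e-06). In WIN1SRDX MYB36 lay 0.35 from wild type (adjusted p = 0.489). PER64, a peroxidase of the strip, differed by -6.60 ± 0.53 (SE, adjusted p = 8.25e-06), with 2 MYB106SRDX arrays well above background. SHR and SCR, which pattern the tissue, differed by -3.09 and -0.87, both passing. CASP5 was well above background on 0 arrays of both lines and on all 4 of wild type.

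Root meristem genes passed in both directions. PLT1 and PLT2, AP2 factors that maintain root stem cells, were at least 4.72-fold and 18.9-fold lower in MYB106SRDX (adjusted p = 1.75e-05 and 8.39e-06), and their relative BBM differed by -3.13 ± 0.71 (SE, adjusted p = 0.00494). WOX5, the homeobox gene of the quiescent centre, read -1.43, -0.97, -1.55 and -0.69 in MYB106SRDX, against -3.58, -4.17, -2.99 and -3.89 in WIN1SRDX and a wild-type mean of -5.15. MYB106SRDX was highest, without overlap (difference 2.49 ± 0.28 SE, adjusted p = 8.14e-05). SMB, of the root cap, differed by -1.81 ± 0.72 (SE, adjusted p = 0.062). In all, 3 of 5 tested members were lower and 1 higher, with a median of -3.13, or -2.24 with PLT1 and PLT2 at their bounds. WOX5 is the 1 member measured on all 8 arrays; the other 4 were tested through WIN1SRDX alone.

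All 3 phloem markers were tested and lower in MYB106SRDX, with a median of -2.11. SUC2, the companion cell sucrose carrier, read -0.53, 0.51, -0.97 and -1.38 in MYB106SRDX, against 1.73, 3.02, 2.0 and 2.46 in WIN1SRDX (difference -2.89 ± 0.39 SE, adjusted p = 0.000225). APL and SEOR1 differed by -1.37 and -2.11. Of 9 xylem and secondary wall genes, 3 were lower and 0 higher, with a median of -2.2, and 5 of them tested through WIN1SRDX alone; over the alternatives the lower count ran from 1 to 8. Within slides 1, 2 and 3 that median was 0.80, -4.68 and -1.24. LAC17, a lignin laccase, differed by -2.31 ± 0.62 (SE, adjusted p = 0.0115). LAC4 and the cellulose synthase gene IRX3 passed narrowly (adjusted p = 0.036 and 0.0415) and lost that call under 12 and 16 of 28 alternatives; without replicate 2 of either line, among others, neither passed.

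Under iron shortage, plants induce the bHLH factors of group Ib and the uptake genes, and when iron is ample they store it in ferritin. Of 8 iron regulators tested, 7 were lower in MYB106SRDX than in WIN1SRDX and 0 higher, with a median of -5.63, or -5.17 with FRU at its bound; 5 of the 8 were tested through WIN1SRDX alone. The 3 measured on all 8 arrays were all lower, with a median of -1.68. BHLH101 read -4.54, -6.24, -2.29 and -0.41 in MYB106SRDX, against 3.67, 3.40, 2.37 and 2.80 in WIN1SRDX and a wild-type mean of -2.55. WIN1SRDX was high on every array and MYB106SRDX spread around the wild-type level (difference -6.43 ± 0.99 SE, adjusted p = 0.000522; MYB106SRDX against wild type -0.82, adjusted p = 0.514; WIN1SRDX against wild type 5.62, adjusted p = 0.00195). BHLH038, BHLH039 and BHLH100 differed by -8.66, -8.49 and -8.80, with adjusted p-values of 0.00378, 0.00272 and 0.00135, and were well above background on 2, 1 and 2 MYB106SRDX arrays. They were tested through WIN1SRDX alone, and their differences rest partly on signals not well above background. Replicate 4 of MYB106SRDX was the highest of its line for each of these 4 factors, and the list median within the slide that held it was -1.49, against -6.41 and -6.10 on the other slides.

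FRU (also FIT), the factor that drives iron uptake, lay below wild type in both lines. It read -7.03, -7.95, -7.62 and -9.08 in MYB106SRDX, against -2.42, -3.24, -3.90 and -2.82 in WIN1SRDX and a wild-type mean of -1.52. No MYB106SRDX array was well above background, and FRU was at least 15.1-fold lower in MYB106SRDX than in WIN1SRDX (adjusted p = 1.17e-05). BTS, an iron-sensing ubiquitin ligase, read 0.47, 0.23, 0.51 and 1.33 in MYB106SRDX, against 2.47, 2.29, 1.87 and 2.65 in WIN1SRDX and a wild-type mean of -0.22 (difference -1.68 ± 0.23 SE, adjusted p = 0.00027).

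Of 19 tested iron transport and storage genes, 10 were lower and 3 higher in MYB106SRDX, with a median of -0.78. Of these, 5 were tested through WIN1SRDX alone and 1 through MYB106SRDX alone. The 13 measured on all 8 arrays held 5 lower and 3 higher, with a median of -0.09. NAS4, a nicotianamine synthase, read -6.63, -9.26, -9.03 and -2.65 in MYB106SRDX, against 0.06, 0.18, -0.15 and 0.55 in WIN1SRDX, with 2 MYB106SRDX arrays well above background (difference -7.05 ± 1.15 SE, adjusted p = 0.000745). IRT2 differed by -6.01 ± 0.77 (SE, adjusted p = 0.000168), with 1 MYB106SRDX array well above background. The main root iron importer IRT1 averaged -7.70 in MYB106SRDX and -5.22 in WIN1SRDX, both below the wild-type mean of -2.19, with 1 MYB106SRDX array well above background and overlapping lines (difference between the lines -2.48 ± 0.70 SE, adjusted p = 0.0146). FER1, the leaf ferritin, read 3.09, 4.30, 4.30 and 2.79 in MYB106SRDX, against 0.77, -0.67, 0.66 and -0.44 in WIN1SRDX and a wild-type mean of 3.12. MYB106SRDX arrays lay on both sides of that mean and WIN1SRDX arrays all below it (difference 3.54 ± 0.46 SE, adjusted p = 0.000192). FER4 and the vacuolar exporter NRAMP3 were higher in MYB106SRDX by 2.2 and 1.2.

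**Figure D3:**
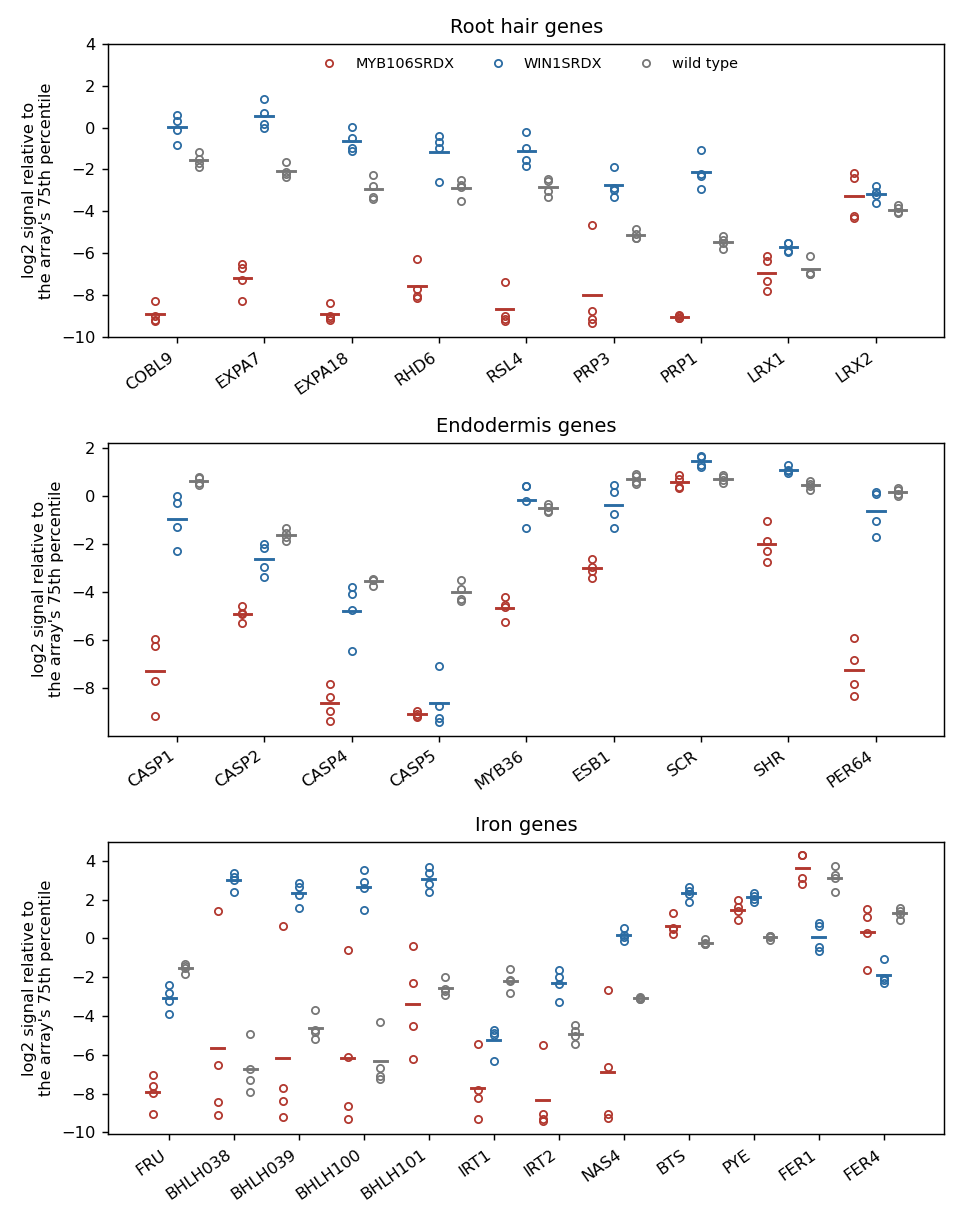
Log2 signal over the array's 75th percentile for root hair, endodermis and iron genes, 1 circle per array and a bar at the mean of 4 arrays, with MYB106SRDX in red, WIN1SRDX in blue and wild type in grey. Red circles near -9 are not well above background; the blue circles of the group Ib bHLH genes (BHLH038, BHLH039, BHLH100 and BHLH101) all lie above 0 while the red ones spread over several log2 units, and for FER1 and FER4 the red means lie above the blue.

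SAUR genes, small auxin-induced genes of cell elongation, were lower more often than higher in MYB106SRDX: of 55 tested, 36 were lower and 9 higher, with a median of -2.72 or -2.46 with bounds. Through WIN1SRDX alone 22 of them were tested. Among the 30 SAUR genes measured on all 8 arrays, 15 were lower and 8 higher, with a median of -0.94. Median centring gave 14 higher of the 55. SAUR63 read -4.44, -5.45, -6.44 and -4.51 in MYB106SRDX, against -0.53, -0.21, 0.64 and 0.22 in WIN1SRDX and a wild-type mean of 0.39. WIN1SRDX arrays lay on both sides of that mean and MYB106SRDX arrays far below (difference -5.24 ± 0.41 SE, adjusted p = 6.73e-06). SAUR61 was at least 5.40-fold and SAUR37 at least 25.8-fold lower in MYB106SRDX, and SAUR68 (AT1G29510) differed by -6.02 ± 0.40 (SE, adjusted p = 2.42e-06). SAUR genes are near-identical neighbours in several places, so a probe may read more than 1 of them.

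Of 29 tested Aux/IAA genes, which repress auxin responses and are induced by auxin, 17 were lower and 2 higher (7 with median centring), with a median of -1.19. Among the 22 measured on all 8 arrays, 12 were lower and 1 higher, with a median of -0.87. IAA17 read -2.60, -3.52, -4.52 and -2.72 in MYB106SRDX, against 1.68, 1.34 and 2.2 on 3 WIN1SRDX arrays (difference -5.08 ± 0.42 SE, adjusted p = 1.85e-05); the spot of replicate 2 was marked as an outlier and left out. IAA4 differed by -2.15 ± 0.20 (SE, adjusted p = 1.85e-05), and IAA31 was at least 5.92-fold lower (adjusted p = 3.47e-07). Of 16 expansins, which loosen cell walls, 8 were lower and 1 higher, with a median of -1.93. EXPA11 read -1.70, -4.76, -3.12 and -3.41 in MYB106SRDX, against 1.28, 1.0, 0.76 and 1.87 in WIN1SRDX and a wild-type mean of 2.75 (difference -4.47 ± 0.51 SE, adjusted p = 8.66e-05). EXPA9 and EXPA6 differed by -3.14 and -2.10. Within slides 1, 2 and 3 the expansin median was 0.25, -3.12 and -1.33.

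Of 29 tested XTH genes, which cut and rejoin xyloglucan in the wall, 15 were lower and 6 higher, with a median of -0.78. Through WIN1SRDX alone 4 of them were tested, and through MYB106SRDX alone 2. Of the 23 XTH genes measured on all 8 arrays, 10 were lower and 5 higher, with a median of -0.08. XTH14 read -4.68, -3.73, -3.76 and -4.77 in MYB106SRDX, against 2.13, 1.53, 1.13 and 1.78 in WIN1SRDX and a wild-type mean of -0.18. The lines lay on opposite sides of wild type (difference -5.88 ± 0.32 SE, adjusted p = 6.11e-07). XTH20 and XTH26 were at least 23.5-fold and 30.7-fold lower in MYB106SRDX. Of 9 gibberellin genes, 5 were lower and 1 higher: the biosynthetic oxidase GA20OX2 differed by -5.27 ± 0.48 (SE, adjusted p = 1.76e-05) with 1 MYB106SRDX array well above background, GA20OX1 by -2.77 with 2 measured, and the receptor GID1B by 1.95 ± 0.21 (SE, adjusted p = 6.46e-05). The gibberellin median was -0.71, and 3 of the 9 genes were tested through WIN1SRDX alone. Of the 6 gibberellin genes measured on all 8 arrays, 2 were lower and 1 higher, with a median of -0.43. Of 5 PRE and IBH1 genes, bHLH regulators of elongation, 2 were lower and 0 higher, with a median of -0.62 that was 0.71 within slide 1. The 2 lower genes were tested through WIN1SRDX alone. The 3 measured on all 8 arrays held 0 lower and 0 higher, with a median of 0.38. PRE3 was at least 11.7-fold lower and PRE1 differed by -5.21 ± 0.84 (SE, adjusted p = 0.000696), while IBH1 itself differed by 0.54 (adjusted p = 0.0834).

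Aquaporin genes, which encode water channels, were lower for 11 and higher for 2 of 23 tested, with a median of -0.62. Median centring gave 7 lower and 7 higher, with a median of -0.13. PIP1;5 read 3.22, 3.46, 2.86 and 2.68 in MYB106SRDX, against 4.76, 5.09, 4.32 and 4.90 in WIN1SRDX (difference -1.71 ± 0.20 SE, adjusted p = 9.74e-05). PIP2;3 went the other way by 2.38 ± 0.31 (SE, adjusted p = 0.00019), and NIP1;1 differed by -5.29 with 2 MYB106SRDX arrays well above background.

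Mitosis genes were lower in MYB106SRDX for 16 of 17 tested and higher for 0, with a median of -2.56. CDKB1;1, a cell cycle kinase of dividing cells, read -3.18, -5.16, -4.91 and -4.74 in MYB106SRDX, against -2.17, -1.32, -1.69 and -1.83 in WIN1SRDX and a wild-type mean of -2.09. The lines did not overlap (difference -2.74 ± 0.37 SE, adjusted p = 0.000237), and replicate 1 was the highest of the MYB106SRDX arrays. CDKB2;1 and CYCB2;1 differed by -2.61 and -3.05, and CYCB2;1 was measured on 3 MYB106SRDX arrays. Within the slides the median was -0.54, -4.05 and -2.32, nearest to 0 on slide 1. DNA replication genes were lower for 9 of 12 tested and higher for 0, but by less (median -0.73): PCNA1 differed by -1.37 ± 0.19 (SE, adjusted p = 0.000305) and MCM3 by -0.77 ± 0.16 (SE, adjusted p = 0.00293). With median centring 2 of the 12 were lower, with a median of -0.24, and MCM3 did not pass (limma adjusted p = 0.182).

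Flavonoid and anthocyanin genes were lower in MYB106SRDX for 9 of 15 tested and higher for 0, with a median of -3.61, or -2.80 with 3 genes at their bound. Among the 10 measured on all 8 arrays, 4 were lower and their median was -0.81. Chalcone synthase (TT4), the entry enzyme, read -5.16, -6.64, -3.68 and -5.18 in MYB106SRDX, against -2.04, 0.17, -0.15 and 0.03 in WIN1SRDX and a wild-type mean of -0.31. Replicate 1 was the lowest WIN1SRDX array, and all 4 lay above every MYB106SRDX array (difference -4.67 ± 0.62 SE, adjusted p = 0.00022). MYB12, an activator of flavonol synthesis, was at least 13.9-fold lower in MYB106SRDX (adjusted p = 3.28e-07), and F3H differed by -3.72 ± 0.51 (SE, adjusted p = 0.000249). PAL1 and C4H, which feed the whole phenylpropanoid pathway, differed by -0.42 and -0.26 and did not pass.

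Of 9 trichome activators tested, 6 were lower and 1 higher, with a median of -1.58. Through WIN1SRDX alone 2 of the 9 were tested. Of the 7 measured on all 8 arrays, 4 were lower and 1 higher, with a median of -1.58 too. Within slides 1, 2 and 3 the median of the tested trichome activators was -0.41, -3.01 and -1.79. GIS, a zinc finger factor of trichome initiation, read -1.98, -3.35, -4.01 and -3.23 in MYB106SRDX, against -1.25, -0.27, -1.55 and -1.10 in WIN1SRDX (difference -2.10 ± 0.39 SE, adjusted p = 0.00158). EGL3 and TTG2 differed by -2.75 and -2.10, and over the alternatives by as little as -0.46 and -0.08. MYB5 differed by 1.18 ± 0.31 (SE, adjusted p = 0.0105). The R3 MYB proteins CPC, TRY and ETC2, small inhibitors of trichome fate, were lower as well, 3 of 5 tested with 0 higher and a median of -1.59 (-1.02 with ETC2 at its bound): CPC differed by -1.59 ± 0.27 (SE, adjusted p = 0.000929). ETC2 was at least 2.03-fold lower (adjusted p = 0.000544), and TRY differed by -1.75. Through WIN1SRDX alone 2 of the 5 R3 MYB genes were tested. Of the 3 measured on all 8 arrays, 1 was lower and 0 higher, with a median of -0.57. With normexp background correction 1 of the 5 was lower, with a median of -0.17, and ETC2 and TRY did not pass (limma adjusted p = 0.513 and 0.343). Within slide 1 both TRY and the list median differed by 0.33. Of 11 stomatal genes, 3 were lower and 0 higher, with a median of -0.21 that was 0.28 with median centring, 0.22 without the first rows of replicate 2 of WIN1SRDX and 0.73 within slide 1. EPFL9 (STOMAGEN), a peptide that promotes stomata, differed by -2.12 ± 0.38 (SE, adjusted p = 0.00137), the receptor kinase ER by -1.26 and FLP by -0.86. SPCH and MUTE, which start the stomatal lineage, were above background on only some arrays of each line and were not tested.

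**Figure D4:**
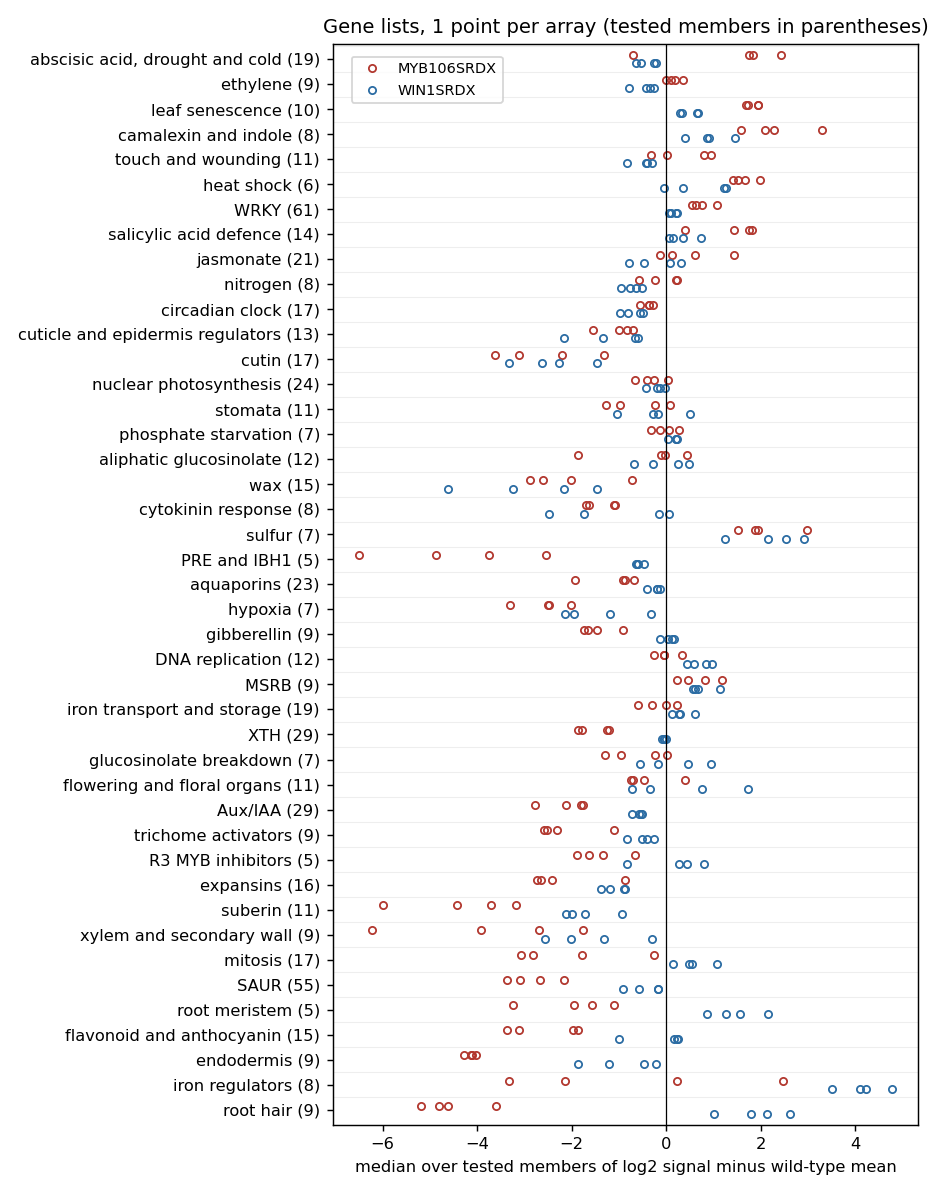
Median log2 signal over the tested members of each gene list on each array, relative to the wild-type mean of the same genes, with MYB106SRDX arrays in red and WIN1SRDX arrays in blue. Lists with at least 5 tested members are shown, ordered by the median difference between the lines: root hair, endodermis and SAUR medians do not overlap between the lines, cutin and wax medians do, and red lies to the right for leaf senescence and WRKY.

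Of 61 tested WRKY genes, which encode factors of defence and senescence, 30 were higher and 9 lower in MYB106SRDX, with a median of 0.72. WRKY28 read 2.28, 2.88, 2.33 and 2.52 in MYB106SRDX, against 0.29, -0.78, -0.83 and -1.19 in WIN1SRDX and a wild-type mean of -1.04 (difference 3.13 ± 0.28 SE, adjusted p = 1.63e-05). WRKY30 read 2.07, -0.94, 3.30 and 1.27 in MYB106SRDX, against -4.03, -3.49, -2.69 and -5.27 in WIN1SRDX. Its spread in MYB106SRDX was wide, but the lines did not overlap (difference 5.29 ± 0.79 SE, adjusted p = 0.000445). WRKY15 and WRKY8 differed by 1.34 ± 0.11 (SE) and 2.61 ± 0.27 (SE).

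Abscisic acid, drought and cold genes were higher for 11 and lower for 0 of 19 tested, with a median of 1.6. The count was 6 in the fit of the 8 arrays alone, 7 without replicate 1 or replicate 4 of MYB106SRDX, and 14 without its replicate 2. On that array the list median lay at -0.69 relative to wild type, while the other 3 MYB106SRDX arrays lay at 1.75 to 2.44 and the WIN1SRDX arrays at -0.63 to -0.21. RD20, a drought-induced lipid-droplet protein, read 4.33, 3.37, 4.78 and 4.94 in MYB106SRDX, against 0.96, 2.03, 1.66 and 0.26 in WIN1SRDX and a wild-type mean of 2.2. WIN1SRDX lay below and MYB106SRDX above wild type on average (difference 3.13 ± 0.40 SE, adjusted p = 0.00017; WIN1SRDX against wild type -0.97, adjusted p = 0.0869). ABI1 and HAI1, phosphatases induced by and acting against abscisic acid, had differences of 1.71 ± 0.20 and 3.97 ± 0.73 (SE; adjusted p = 9.30e-05 and 0.0015). Not every member was above wild type in MYB106SRDX: ERD10 averaged 6.49 in MYB106SRDX and 2.62 in WIN1SRDX, with 6.57 in wild type, and RD29A 4.34, 1.39 and 4.43. The cold factors CBF1, CBF2 and CBF3 differed by 0.68, -0.21 and 1.02 and did not pass.

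Of 21 jasmonate genes, 8 were higher and 4 lower, with a median of 0.53 (5 to 12 higher over the alternatives), and induced genes of storage and defence were among the lower ones. The biosynthetic lipoxygenase LOX3 read 4.27, 3.70, 3.55 and 4.51 in MYB106SRDX, against -0.57, -1.22, -0.20 and -0.88 in WIN1SRDX and a wild-type mean of 3.33. Every WIN1SRDX array lay below every MYB106SRDX array (difference between the lines 4.72 ± 0.27 SE, adjusted p = 7.66e-07; WIN1SRDX against wild type -4.04, adjusted p = 1.93e-05; MYB106SRDX against wild type 0.68, adjusted p = 0.0543). LOX4 differed by 4.19 ± 0.35 (SE, adjusted p = 1.04e-05), and lay on opposite sides of wild type in the lines. VSP1, a storage protein induced by jasmonate, read -0.28, 0.11, -1.58 and -2.42 in MYB106SRDX, against 1.03, 5.14, 4.28 and 4.40 in WIN1SRDX (difference -4.76 ± 0.89 SE, adjusted p = 0.00169). VSP2, THI2.1 and the ethylene and jasmonate factor ORA59 were lower as well, with differences of -4.53, -4.27 and -2.31. The repressor genes JAZ1, JAZ5 and JAZ8 were higher by 1.46, 1.77 and 2.77, while MYC2 differed by 0.36 (adjusted p = 0.408).

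Of 14 salicylic acid defence genes, 5 were higher and 2 lower, with a median of 0.61 (8 higher with median centring). These calls made up 50% of the list, beside 43.1% over all genes tested. PR1, the classical marker of this pathway, read -1.73, -4.82, -0.69 and -5.38 in MYB106SRDX and was well above background on 0 WIN1SRDX and 0 wild-type arrays. It was at least 15.6-fold higher in MYB106SRDX than in WIN1SRDX (adjusted p = 0.000606). The receptor NPR1 differed by 0.90 ± 0.10 (SE, adjusted p = 9.16e-05). PAD4 went the other way, with a difference of -0.87 ± 0.15 (SE, adjusted p = 0.000894), and the synthesis gene ICS1 differed by -0.48 (adjusted p = 0.247).

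Leaf senescence genes were higher for 8 and lower for 1 of 10 tested, with a median of 1.54. ORE1, a NAC factor of senescence, read 3.71, 4.08, 4.11 and 3.79 in MYB106SRDX, against 2.58, 1.53, 2.02 and 2.19 in WIN1SRDX and a wild-type mean of 1.61 (difference 1.84 ± 0.21 SE, adjusted p = 7.62e-05). NYE1 and PAO, of chlorophyll breakdown, differed by 1.36 and 0.95, and SAG29 by -2.03. SAG12, the marker of late senescence, was well above background on 1 array of each group and was not tested. Of 9 ethylene genes, 5 were higher and 2 lower, with a median of 1.59: the synthase ACS2 differed by 4.34 ± 0.97 (SE, adjusted p = 0.0046), the response gene EBF2 by 1.59 ± 0.16 (SE, adjusted p = 2.96e-05), ERS2 by 1.09, and the oxidase ACO1 by -3.38 ± 0.46 (SE, adjusted p = 0.000237).

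Of 11 touch and wounding genes, 7 were higher and 2 lower, with a median of 1.40. SZF2, a zinc finger gene, differed by 1.86 ± 0.26 (SE, adjusted p = 0.000294), TCH3 by 1.09 and WRKY40, with 3 WIN1SRDX arrays measured, by 2.72 ± 0.43 (SE, adjusted p = 0.000875). Of 8 camalexin and indole genes, 3 were higher and 0 lower, with a median of 1.53 (6 higher with median centring). These calls made up 37.5% of the list, beside 43.1% over all genes tested. MYB51 differed by 1.78 ± 0.30 (SE, adjusted p = 0.000878) and CYP71A12 by 1.98 ± 0.39 (SE, adjusted p = 0.00243), while CYP83B1 passed with an adjusted p of 0.0357 that was lost under 12 of 29 alternatives, among them leaving out replicate 1, 2 or 4 of either line. The oxidases AOX1A and AOX1D, markers of mitochondrial stress, were higher by 1.92 and 2.93, 2 of 4 tested with 0 lower and a median of 1.33. Of 6 heat shock genes 1 was higher and 0 lower (median 0.76), and 4 were higher with median centring. Of 9 methionine sulfoxide reductase genes of the MSRB family, 1 was higher and 3 lower (median -0.75): MSRB3 differed by 0.66, and MSRB5, MSRB6 and MSRB7 by -1.72, -2.60 and -1.84. The calls made up 44.4% of the MSRB list, near the 43.1% over all genes tested.

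Of 24 nuclear photosynthesis genes tested, 1 was higher and 0 lower (5 had an unadjusted p under 0.05), with a median of -0.12. Their summed linear signal was 1497 to 2206 on the MYB106SRDX arrays, 1663 to 2119 on the WIN1SRDX arrays and 2026 to 2279 in wild type. The gene that passed, RBCS2B, differed by 0.75 ± 0.24 (SE, adjusted p = 0.0285) with 3 WIN1SRDX arrays measured. Centring on the median gave 8 higher and a median of 0.37, and the value table of the authors gave 6 lower. Leaving out replicate 1 of MYB106SRDX gave 0 higher and 5 lower. The 1 tested chloroplast gene was higher by 0.99, and 2 of 4 mitochondrial genes were higher with 0 lower (median 1.21, and -0.10 within slide 3).

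Of 17 circadian clock genes, 5 were higher and 2 lower, with a median of 0.32. That is 41.2% of the list, near the 43.1% over all genes tested, and the higher count ran from 2 (the authors' value table) to 9 (median centring). RVE1, a morning MYB factor, read -1.64, -1.98, -2.40 and -0.71 in MYB106SRDX, against 1.72, 0.95, -0.20 and 0.25 in WIN1SRDX (difference -2.36 ± 0.42 SE, adjusted p = 0.00123). The evening gene TOC1 differed by 0.88 ± 0.17 (SE, adjusted p = 0.00205) and FKF1 by 0.75 ± 0.21 (SE, adjusted p = 0.0135). LHY and CCA1, the core morning genes, differed by -1.0 and -0.88 and did not pass. The hour of harvest is not given in the labels.

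Of 8 nitrogen genes 3 were higher and 1 lower (median 0.34, and -0.05 within slide 1). The ammonium importer AMT1;3 read -6.21, -4.85, -5.96 and -6.63 in MYB106SRDX, against -1.71, -3.23, -3.02 and -2.25 in WIN1SRDX (difference -3.36 ± 0.39 SE, adjusted p = 9.48e-05). NRT2.1, a nitrate importer, went the other way by 4.51 ± 1.08 (SE, adjusted p = 0.00656), with 1 WIN1SRDX array well above background, and NIR1 by 0.77. Of 7 phosphate starvation genes 3 were lower and 0 higher (median -0.25, but 0.24 with median centring and 0.27 within slide 3), among them PHO1, which loads phosphate into the xylem, by -2.66 ± 0.25 (SE, adjusted p = 2.38e-05), and MGDC and PHT1;1 by -1.80 and -0.99. Of 7 sulfur genes 1 was lower and 0 higher (median -0.55): the importer SULTR1;1 was at least 5.49-fold lower (adjusted p = 4.82e-05). Of 7 hypoxia genes 3 were lower and 0 higher (median -0.64), with differences of -3.53 for SUS4, measured on 2 MYB106SRDX arrays, -1.67 for HB1 and -2.08 for PDC1. PDC1 lost its call under 16 and HB1 under 6 of 29 alternatives, and with median centring 1 of the 7 was lower. In the phosphate and hypoxia lists alike 42.9% of the genes tested passed, near the 43.1% over all genes tested.

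Of 12 aliphatic glucosinolate genes 2 were lower and 0 higher (median -0.29, but 0.20 with median centring). Of 7 glucosinolate breakdown genes 2 were higher and 2 lower (median -0.91, and 0.63 within slide 1), with PEN2 and NSP5 higher by 1.04 and 1.02 and the myrosinase TGG2 differing by -1.83. Of 8 cytokinin response genes 2 were lower and 0 higher (median -0.49, and 0.81 within slide 2). Of 11 flowering and floral organ genes 3 were lower and 0 higher (median -1.14, and 0.15 within slide 1): AGL24, AGL20 and SPL3, which promote flowering, differed by -1.41, -1.27 and -1.69. The 7 seed storage genes were not tested: none was well above background on a MYB106SRDX or wild-type array, while 6 of them were on at least 1 WIN1SRDX array, and their summed signal there ran from 0.0222 to 0.260.

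Beyond the lists, the genes of the largest differences were named by rule. Among those measured on all 8 arrays and not overlapping, the 10 most raised in MYB106SRDX were MYB106, MYB74, M17, WRKY30, MYB96, TDR1, GATL2, LOX3, ACS2 and UGT76E12. The probes of GATL2 and UGT76E12 lie in the first 100 rows. MYB74, a MYB factor induced by salt and drought, read 0.96, 0.12, 1.68 and 1.33 in MYB106SRDX, against -2.59, -5.33, -4.82 and -5.02 in WIN1SRDX (difference 5.46 ± 0.55 SE, adjusted p = 3.82e-05). GATL2, a glycosyltransferase-like protein of the cell wall, read 2.65, 2.54, 2.70 and 3.11 in MYB106SRDX, against -2.26, -2.32, -1.48 and -2.0 in WIN1SRDX. The wild-type mean of -0.88 lay between the lines (difference 4.76 ± 0.21 SE, adjusted p = 1.59e-07). M17, a late embryogenesis abundant protein, differed by 5.42 ± 0.71 (SE, adjusted p = 0.000195), and the ERF factor TDR1 by 4.97 ± 0.48 (SE, adjusted p = 2.66e-05). UGT76E12, a glycosyltransferase, differed by 4.30.

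The 10 most lowered included BHLH101, XTH14, SBT4.12, SAUR63, AGP3, AT14A, VSP1, LAC1 and CHIL, with SBT4.12, SAUR63 and VSP1 in the first 100 rows. SBT4.12, a subtilisin-like protease, read -4.35, -5.86, -4.63 and -4.58 in MYB106SRDX, against 1.71, 0.34, -0.07 and 1.64 in WIN1SRDX (difference -5.76 ± 0.43 SE, adjusted p = 5.00e-06). CHIL, a helper protein of chalcone synthesis, read -3.80, -4.73, -5.79 and -4.24 in MYB106SRDX, against 0.03, 0.19, -0.34 and 0.28 in WIN1SRDX (difference -4.68 ± 0.36 SE, adjusted p = 6.36e-06). AGP3, an arabinogalactan protein, and AT14A differed by -4.90 and -4.85 with an SD of more than 2 among the MYB106SRDX arrays (2.23 and 2.22). The laccase LAC1 differed by -4.68 ± 0.44 (SE, adjusted p = 2.38e-05).

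Genes that passed and were measured on every array of one line and on none of the other were 17 in the direction of MYB106SRDX and 338 in the direction of WIN1SRDX. Such a choice favours passing, so the counts are a description. Genes tested through 1 line only were 633 for MYB106SRDX and 1357 for WIN1SRDX. Median spot intensity was also lower on the MYB106SRDX arrays (76.7 against 112), and its part in these counts was not tested. The 5 largest bounds among the passing genes of this kind with a symbol were, on the higher side, PR1 (at least 15.6-fold), NRT2.6 (15.2-fold), SUC5 (6.28-fold), ddf2 (5.98-fold) and CYP76C3 (4.62-fold). On the lower side they were RHS18 (at least 145-fold), COBL9 (129-fold), ST4B (126-fold), CYP82F1 (86.0-fold) and EXPA18 (82.1-fold). RHS18, a peroxidase named for its root hair expression, read -8.96, -9.09, -8.88 and -9.12 in MYB106SRDX, against 0.86, 0.36, -0.78 and 0.25 in WIN1SRDX and a wild-type mean of -2.79 (adjusted p = 2.32e-08).

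Some genes stood on opposite sides of wild type in the lines. By rule the 5 largest in each direction that passed against wild type in both were MYB106, TDR1, GATL2, LOX4 and CRK14 on the higher side, and XTH14, SBT4.12, LAC1, CHIL and RHS13 on the lower side. Both comparisons with wild type use the same wild-type arrays, and 51.7% of the tested genes passed in MYB106SRDX (24.3% higher and 27.4% lower) and 32.1% in WIN1SRDX (17.9% higher and 14.2% lower). RHS13, another gene named for root hairs, differed from wild type by -2.88 in MYB106SRDX (adjusted p = 1.72e-05) and 1.47 above it in WIN1SRDX (adjusted p = 0.0028). CRK14, a receptor kinase, lay 1.3 above wild type in MYB106SRDX (adjusted p = 0.0181) and differed from it by -2.88 in WIN1SRDX (adjusted p = 0.000541).

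Runs of at least 4 tested genes next to each other that all passed at 2-fold or more in one direction numbered 41, with 184 genes, 14 runs higher and 27 lower. Untested genes lying between them were passed over. This rule was set, and the runs named here were chosen, after the values were seen. Of all genes tested, 8.41% passed at 2-fold or more as higher and 15.5% as lower. How many runs such shares give by chance was not tested. The longest higher run held 9 genes on chromosome 4, from CRK7 to CRK15, of which those named CRK encode cysteine-rich receptor kinases. CRK14 read 2.17, 1.06, 3.00 and 2.22 in MYB106SRDX, against -3.00, -1.46, -1.96 and -1.86 in WIN1SRDX. CRK13 read -3.03, -1.95, -1.77 and -2.52 in MYB106SRDX, against -5.76, -6.08, -6.37 and -6.18 in WIN1SRDX (difference 3.78 ± 0.25 SE, adjusted p = 2.32e-06). The differences in the run went from 1.94 to 4.21, and CRK7 and CRK8 had only 3 and 1 WIN1SRDX arrays well above background. Other higher runs were AT1G26380 to AT1G26420 and AT1G30700 to AT1G30740, 5 genes each, and GSTU1 to GSTU5, glutathione transferases.

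The longest lower run held 8 genes on chromosome 4, from CYP705A1 to BIA1 around PEN1. PEN1 encodes an oxidosqualene cyclase of triterpene synthesis, and such genes lie with their modifying enzymes in clusters in this species. PEN1 read -4.93, -3.10, -4.96 and -5.06 in MYB106SRDX, against -0.63, -1.80, -1.66 and 0.45 in WIN1SRDX and a wild-type mean of -2.48 (difference -3.60 ± 0.54 SE, adjusted p = 0.000448). Another triterpene cluster, that of thalianol on chromosome 5, formed a lower run of 4. Its genes AT5G47980, CYP705A5, CYP708A2 and THAS1 differed by -5.78, -3.26, -2.80 and -1.39. THAS1, the cyclase that makes thalianol, read 0.58, 1.41, 1.11 and -0.21 in MYB106SRDX, against 2.28, 1.56, 1.80 and 2.80 in WIN1SRDX. Its wild-type mean of -1.23 lay below both lines, while that of AT5G47980 was -3.41, between MYB106SRDX at -4.92 and WIN1SRDX at 0.86.

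A group of 5 SAUR genes on chromosome 1, from AT1G29420, and another on chromosome 4, from AT4G34760, formed lower runs. A further run of 5 on chromosome 1, from AT1G29500, began with the SAUR genes SAUR66 and SAUR68. Over the other settings the count of runs went from 9 to 51 higher and from 8 to 40 lower, and the runs from CRK7 and CYP705A1 kept 7 to 9 and 6 to 8 genes. The run from AT1G29420 shrank to 1 gene among those measured on all 8 arrays. Neighbours of this kind are often close copies, and how far their probes share signal was not tested.

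**Figure D5:**
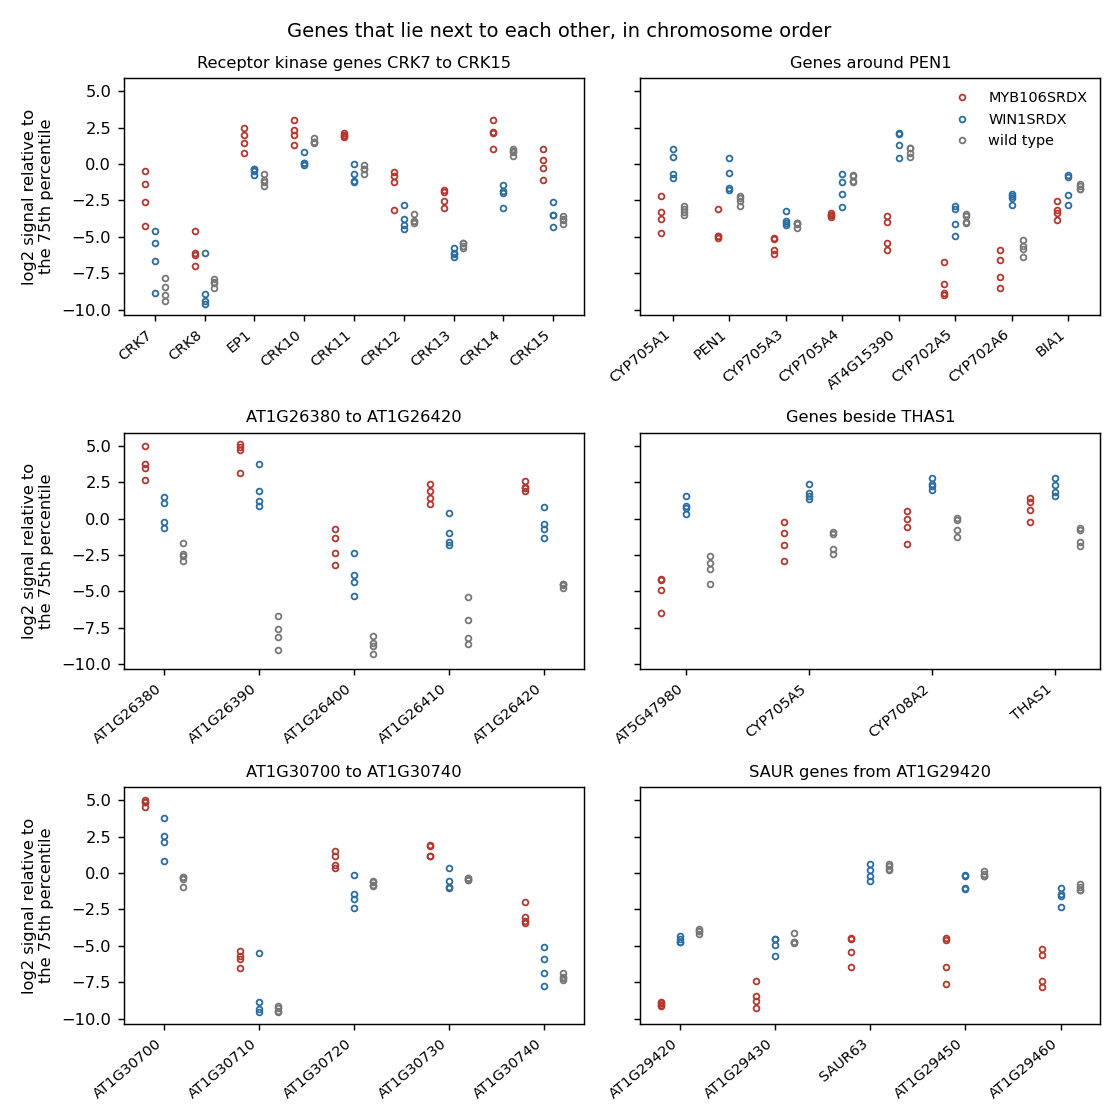
Log2 signal over the array's 75th percentile for the genes of 6 runs of neighbours, in chromosome order, 1 circle per array with MYB106SRDX in red, WIN1SRDX in blue and wild type in grey. Red means lie above blue means in the left panels, which hold higher runs, and below them in the right panels; the wild-type circles lie below both lines for AT1G26390 and THAS1, and the wild-type mean lies between those of the lines for AT5G47980.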

How the data were processed

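Total RNA of whole seedlings was labelled with Cy3 and hybridised to 1-colour Agilent arrays, 1 array per sample, with 4 arrays each for MYB106SRDX, WIN1SRDX and wild type. Per the submitters' processing notes, the scans went through Agilent Feature Extraction 9.1.3.1. The deposited scanner files give the intensity of each spot, which per the file headers was corrected for background, and flags for spots well above background, saturated or non-uniform. The authors' value table holds linear values: each is the ratio of the processed intensity to a constant for its group (1083 for MYB106SRDX, 996 for WIN1SRDX and 1264 for wild type), with column medians of 0.0598 to 0.0758, 0.0867 to 0.137 and 0.0966 to 0.109. It is not centred and has no direction of its own, and the sources used here do not say why the constant differs between groups. It served as an alternative only.

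From the deposited intensities, log2 values were taken relative to each array's 75th percentile of non-control spots. Controls and outlier spots were dropped (214 tested genes lack a spot on at least 1 array of the lines), and the brightest probe stood for a gene with several. Genes came from the locus names in the files, and 25449 of 25665 were found in the RefSeq table, 10189 with a symbol. A gene was tested if each of the 4 arrays of 1 or both lines measured it well above background. The test was limma 3.58.1 (lmFit and eBayes, R 4.3.3) with the 3 groups in 1 fit, 9 residual degrees of freedom and Benjamini-Hochberg adjustment. A gene's median SD over 4 arrays was 0.30 for MYB106SRDX, 0.27 for WIN1SRDX and 0.14 for wild type. The number of arrays limits the precision.

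The 48 gene lists and the rules for naming genes were chosen with earlier results of these data known. Named by rule were the 10 largest differences each way measured on all 8 arrays without overlap, the 5 largest bounds each way, the 5 largest each way on opposite sides of wild type, MYB106, WIN1, SUP, MYB16, SHN2 and SHN3, and up to 3 passing members per list with the lowest p. Other genes were named after their values were seen. A gene that the rule names is not reported here. Replicate numbers were not used to pair the samples in the main fit. Correlations of same-numbered deviations were -0.14 to -0.01 between the lines. With wild type they were -0.096 to -0.004 for MYB106SRDX and -0.07 to 0.20 for WIN1SRDX. Low correlations do not show how the samples were grown or handled. Tested on simulated data with 19720 genes, the fit of MYB106SRDX against WIN1SRDX recovered 26, 43, 45 and 48 of 50 genes changed by 1, 2, 3 and 4 log2 units. False calls numbered 4. Far fewer genes were changed there than the 8505 that passed in the measured data, and recovery at such a share was not tested.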

Additional observations from a re-analysis of the deposited data

Results flagged for a closer look

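In 27 of 418 groups of 4 arrays, 1 array lay apart from the other 3 by more than Dixon's 95% critical value, and chance alone gives about 1 in 20. Values are log2 signals relative to the array's 75th percentile. Replicate 2 of MYB106SRDX was low for MYB106 (2.77, others 4.53 to 4.81), SUP (3.59, others 5.17 to 5.46), CYP76C3 (-6.49, others -4.56 to -4.22) and HAI1 (0.81, others 3.19 to 3.62), and high for TOC1 (1.01, others 0.40 to 0.48).

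In the other MYB106SRDX arrays, WIN1 was high in replicate 3 (-3.36, others -9.16 to -8.62), and so was NRT2.1 (-1.06, others -4.48 to -4.10). EGL3 (-4.59) and XTH26 (-7.51) were high in replicate 1. IRT2 (-5.50) and SAUR37 (-7.70) were high in replicate 4.

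Among WIN1SRDX arrays, replicate 1 was low for SHN2 (-6.64, others -2.80 to -2.34) and TT4 (-2.04, others -0.15 to 0.17) and high for IAA4 (2.72). Replicate 2 was low for PLT2 (-3.87, others -2.50 to -2.30) and SZF2 (1.69), and replicate 4 for WRKY8 (-2.12). In wild type, replicate 1 stood apart for SAUR68 (-0.33), PIP2;3 (1.59) and MSRB5 (-0.44), and replicate 2 for MYB96 (1.31), CER2 (1.01), GIS (-0.42) and MSRB7 (-6.56). Replicate 3 of wild type stood apart for PLT2 (-5.11) and TOC1 (1.12), and replicate 4 for LAC1 (-2.60).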

How the results depend on the processing

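The count of 8505 genes that passed ran from 6277, in a fit of the 8 arrays of the lines alone, to 12075 under median centring, and from 7563 (without replicate 2 of WIN1SRDX) to 8508 (without replicate 2 of MYB106SRDX) when 1 array was left out. Median centring gave 9364 higher and 2711 lower, and the table of the authors' values gave 2059 higher and 5862 lower. The fit with the replicate block gave 7934. Leaving out the first 100 rows of replicate 2 of WIN1SRDX, an alternative chosen after seeing the data, gave 8441. The difference in median intensity ran from -43.2 to -25.8 when 1 array was left out, with an exact permutation p of 0.0571 when any MYB106SRDX array was left out and 0.0286 when any WIN1SRDX array was. That in the share of spots well above background ran from -2.92 to -1.54 percentage points (exact permutation p = 0.0286 without replicate 2 of WIN1SRDX).

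Of the named genes' values under alternatives, 105 lost the call and 2, both of SHN2, gained it. Signs turned for MYB16, to 0.14 (limma adjusted p = 0.917) without replicate 2 of WIN1SRDX, in a range of -1.64 to 0.14 over the arrays left out, and, within slide 1, for TRY to 0.33, FLP to 0.027, TGG2 to 0.44, SPL3 to 0.15, IRX3 to 0.74, MYB16 to 3.66 and SHN2 to 3.49. Calls were lost for PDC1 under 16 alternatives, PHT1;1 under 7, SPL3 and HB1 under 6, TGG2 under 5, and AGL20 and FLP under 4. The cause was not tested. Genes not well above background on a line's arrays give only bounds there.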

Other observations

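Other runs of neighbouring genes that passed in 1 direction, chosen after their values were seen, held further gene families. On chromosome 1, 5 genes from AT1G52030 to AT1G52070, among them MBP1 and MBP2, were lower in MYB106SRDX with differences of -8.65 to -2.21. On chromosome 4, AZI1, EARLI1, AT4G12490 and AT4G12500 were higher by 2.24 to 3.58. On chromosome 3, 5 cytochrome P450 genes of the CYP71B family were higher by 1.21 to 3.91, and UGT76E12 and UGT76E11, which encode glycosyltransferases, lay in a run of 4 that was higher by 1.85 to 4.30. VSP1 and VSP2 lay side by side on chromosome 5 in a lower run of 4 with a median of -2.89.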
